A study of Mus musculus with 31 samples.

Results

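The genes described here are the mouse zinc finger genes with numbered symbols from Zfp600 to Zfp999, Zfp750 left out. They were chosen by symbol alone and make up 166 of the 20544 gene symbols in the count table of single 2-cell embryos. The embryos were wild type and came from in vitro fertilization of eggs of superovulated CD1 females, 8 to 10 weeks old, with sperm of C57BL/6J males, 12 to 14 weeks old, and were collected 32 h after insemination. In the 15 SER-generated embryos, the sperm had been kept without glucose and pyruvate until motility was lost, for 15 to 45 min, and had then been given both again. In the 16 control-generated embryos, the sperm had stayed in complete medium throughout. One cauda of a male went to each treatment. The study asked whether this treatment of the sperm changes the transcripts of the embryo after the embryonic genome has been switched on, and each embryo was 1 library.

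Most numbered Zfp genes encode proteins with arrays of C2H2 zinc fingers, each a short fold that holds a zinc ion with a pair of cysteines and a pair of histidines and contacts a few bases of DNA. Many also carry a KRAB box at the start of the protein, which binds the corepressor Trim28 (KAP1). Trim28 then brings the H3K9 methyltransferase Setdb1, HP1 proteins and the NuRD complex to the bound site, and many of the sites known are retrotransposons. The genes arose by repeated local duplication and many lie side by side in clusters, so that neighbours can be close copies of each other.

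The libraries held 532945 to 3088396 counts, and 10455 to 13220 genes were detected with at least 1 count. Libraries of SER-generated embryos held more counts, with a median of 1375557 against 955807 in control-generated embryos. Markers of the 2-cell stage, 8 of 8, and of the oocyte, 6 of 6, had counts in some embryo of both groups. The 2-cell markers summed to a median of 755 CPM (counts scaled to the library total). They summed to 6.04 CPM in control replicate 4 and 92.7 CPM in SER replicate 15, the lowest sums. The oocyte markers summed to a median of 1270 CPM, and to 3630 and 5594 CPM in these 2 embryos. Many of these markers are also in the lists of the zygotic index below. Of the 11 cumulus cell markers, 10 had counts in each group, with Ptx3 at 0 in the control- and Fshr at 0 in SER-generated embryos. They summed to 7.79 to 303 CPM, with medians of 116 CPM in the control- and 140 CPM in SER-generated embryos. The 7 sperm markers summed to 0 to 30.9 CPM. A zygotic index was computed for each embryo as the log2 ratio of the summed CPM of 28 zygotic transcripts to that of 27 maternal transcripts, scaled to an SD of 1 over the 31 embryos. None of the genes described here is in these lists. Control replicate 4, with an index of -3.55, and SER replicate 15, with -1.78, had the lowest values, and the slopes on the index and the counts of called slopes are given with and without both. The embryos came from independent batches that the labels do not give for each embryo, so the part of batch in any difference was not tested. Nothing in the labels says that 2 embryos of a group came from different males or females, and p-values measure the spread between these embryos only. Counting limits cover counting error only.

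Of the 166 genes, 158 had at least 1 count in some embryo, 123 (74.1%) had counts in 16 or more embryos and 45 (27.1%) had counts in all 31. Over all genes of the table, 56.9% had counts in 16 or more embryos and 27.6% in all 31. An embryo held transcripts of a median of 115 of the 166 genes, with a range of 104 to 141. After each library was thinned to the smallest total of 532945 counts, the median was 108, with a range of 92 to 130. The genes summed to a median of 6605 CPM per embryo, with 4356 CPM in SER replicate 15 and 4477 CPM in control replicate 4 at the low end and 9224 CPM at the high end. The 198 genes numbered Zfp1 to Zfp599 summed to a median of 7565 CPM. Of them, 146 (73.7%) had counts in 16 or more embryos and 46 (23.2%) in all 31.

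**Figure D1:**
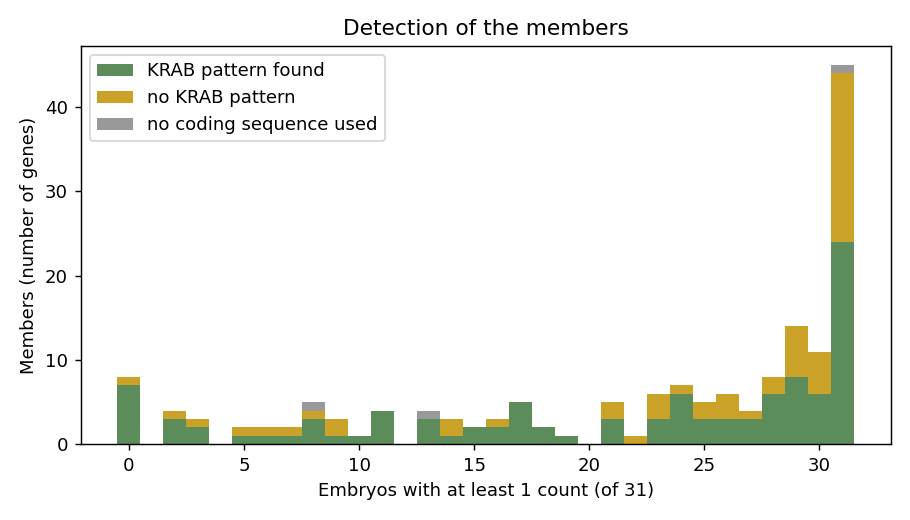
Number of Zfp600 to Zfp999 genes (vertical axis, stacked bars) by the number of embryos with at least 1 count (horizontal axis, 0 to 31). The bar at 31 holds 45 genes, 24 of them with a KRAB pattern, and the bar at 0 holds 8 genes, 7 of them with a KRAB pattern.

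Levels of different genes were compared as CPM per kilobase of exon, the exons taken from GENCODE vM21 on GRCm38. Of the 165 genes with a length, the median over genes of the median embryo was 1.22 CPM per kb, against 0.608 over the 20349 genes of the table with a length. The 198 genes numbered Zfp1 to Zfp599 were close to the group, at 1.20 CPM per kb. A median above 10 CPM per kb was reached by 33 genes (20.0%), against 21.1% of all genes, and the median embryo held no count of 42. Most of the signal came from a few genes. The 10 with the highest level per length made up a median of 52.2% of the summed CPM in an embryo, with a range of 32.7% to 67.0%.

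The highest level per length was that of Zfp707 (chr15:75969123-75975868, plus strand), a KRAB gene with 8 fingers by pattern, at a median of 151 CPM per kb. Its level was 0, 532 and 874 CPM (lowest, median, highest) in the control- and 0, 529 and 875 CPM in the SER-generated embryos. The zeros were control replicate 4 and SER replicate 15, and all 29 other embryos had at least 135 CPM. Next was Zfp706 (chr15:36997027-37007773, minus strand), which encodes a protein of 76 residues with a single finger and is known for limiting self-renewal of mouse embryonic stem cells, at 127 CPM per kb. It was the steadiest of the 79 genes that passed the filter of the fit between groups, with a square root of the dispersion of 0.340 against a median of 0.776 over the 79 and of 0.679 over all genes fitted. Its level was 496, 649 and 1163 CPM in the control- and 405, 562 and 781 CPM in the SER-generated embryos. The groups overlapped between 496 and 781 CPM.

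Zfp622 (chr15:25984366-25998481, plus strand), the counterpart of a yeast factor that acts in the maturation of the large ribosomal subunit, came next at 111 CPM per kb. It was at 0, 804 and 1323 CPM in the control- and 0, 791 and 3013 CPM in the SER-generated embryos. Both zeros were again control replicate 4 and SER replicate 15, and SER replicates 5, 6 and 7 stood above all other embryos at 2197, 2735 and 3013 CPM. Zfp830 (chr11:82764345-82765935, plus strand), a single-finger protein needed for survival of the early embryo, had counts in all 31 embryos at a median of 68.6 CPM per kb, and its levels ran from 34.6 to 201 CPM in the control- and from 39.3 to 180 CPM in the SER-generated embryos. Zfp982 (chr4:147492417-147513486, plus strand) followed at 62.9 CPM per kb. Its 7 fingers come with a KRAB pattern, and its levels ran from 20.7 to 178 CPM in the control- and from 36.5 to 224 CPM in the SER-generated embryos.

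The other 5 of the 10 highest were Zfp821 at 57.4, Zfp655 at 47.8, Zfp936 at 47.5, Zfp775 at 44.0 and Zfp951 at 41.1 CPM per kb. Of these, only Zfp936 and Zfp951 matched the KRAB pattern, so that 4 of the 10 highest genes had one. Zfp936 (chr7:43114229-43192109, plus strand) ran from 39.9 to 732 CPM in the control- and from 22.2 to 386 CPM in the SER-generated embryos, the widest range among these 5. Zfp655 (chr5:145231715-145247302, plus strand) had the narrowest, from 146 to 425 CPM in the control- and from 165 to 422 CPM in the SER-generated embryos. The ranges of neighbours in this order overlapped, and their order was not tested.

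**Figure D2:**
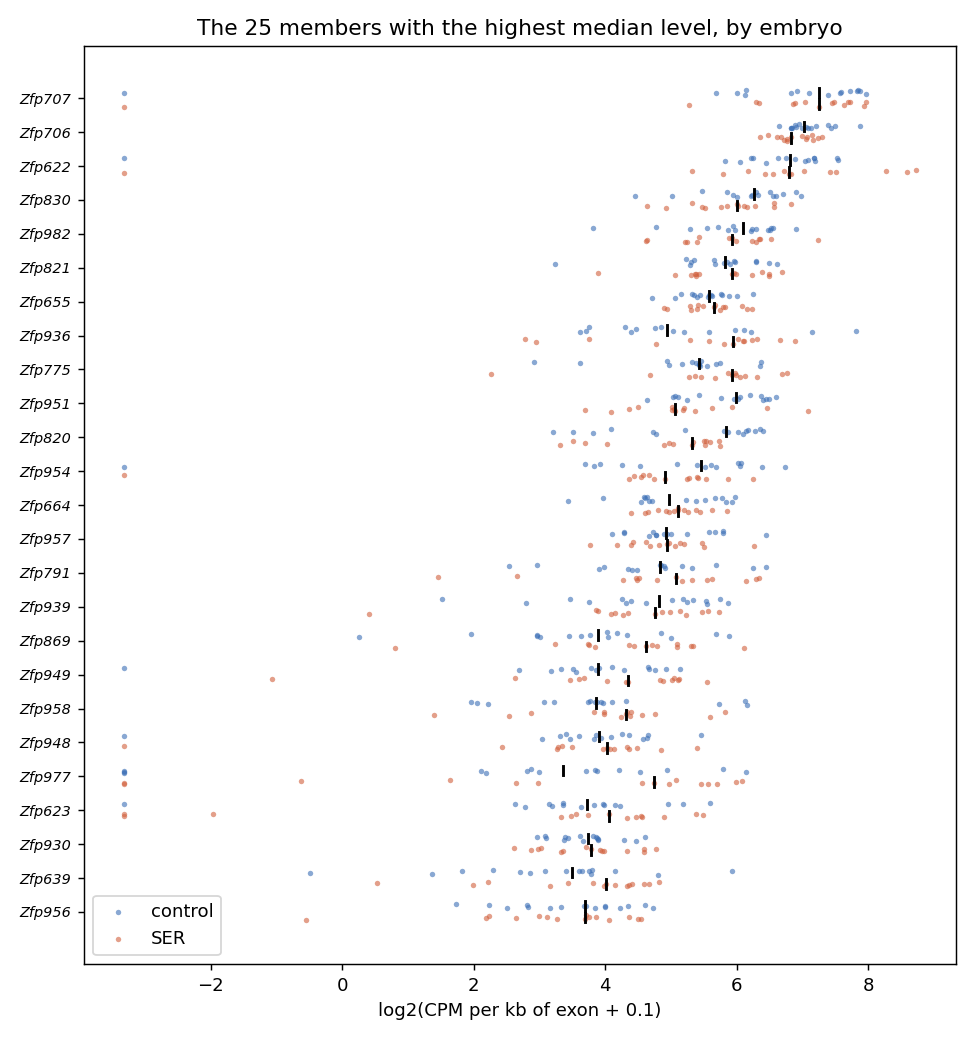
Level of the 25 genes with the highest median, as log2(CPM per kb of exon + 0.1), with 1 point for each control-generated (n = 16) and SER-generated (n = 15) embryo and a black bar at each group's median. Zfp707, Zfp622 and Zfp954 each have a point at the left edge in both groups, which are the libraries with no count, as do some genes of lower level.

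Features that the choice by symbol did not use were read from the translated GENCODE coding sequences of 163 of the genes. A KRAB A-box pattern was found in 105 of the 163, the median number of fingers was 11, and each protein was a median of 56.5% identical to its nearest relative in the group. Genes with a KRAB pattern had a median level of 0.964 CPM per kb, and 24 of 105 (22.9%) had counts in all 31 embryos. Genes without the pattern had a median of 2.81 CPM per kb, and 20 of 58 (34.5%) had counts in all 31. Among Zfp1 to Zfp599 the order was alike, with 0.969 CPM per kb and 11 of 65 (16.9%) in all 31 with the pattern, and 1.42 CPM per kb and 35 of 129 (27.1%) without it. By the number of fingers, the 25 genes with 0 to 5 had a median of 4.10 CPM per kb, the 51 with 6 to 10 had 1.21, the 57 with 11 to 15 had 1.22 and the 30 with 16 or more had 0.760. These medians describe the genes, which are related to each other, and were not tested.

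How far a gene can be told from its relatives by a short read differed across the group. The share of a gene's 30-base words that occur in no other gene of the GENCODE transcripts was a median of 92.7%. It was 90.2% in genes with a KRAB pattern and 97.4% in genes without it. From few to many fingers, it was 98.7%, 93.7%, 89.3% and 93.1% in the sets above. Its part in the level differences between these sets was not tested. In 22 genes the share was under 50%, and 19 of them had a KRAB pattern. These 22 had a median level of 0.0885 CPM per kb, with counts in all 31 embryos for 3 of 22. In the 100 genes at 90% or more, the median level was 1.53 CPM per kb, and 29 had counts in all 31. Of the 8 genes with no count in any embryo, 6 were at or under 9.17% unique words, namely Zfp781, Zfp965, Zfp966, Zfp967, Zfp968 and Zfp973. The other 2, Zfp879 and Zfp648, were at 98.0% or more. The authors kept uniquely mapping reads, at least for the 5′ reads with a molecular identifier. A level near 0 of a gene with few unique words can therefore not be told apart from reads lost between copies.

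The proteins of Zfp966, Zfp967 and Zfp968 were identical, as were those of Zfp965 and Zfp973 up to the length of the shorter, and none of these 5 neighbours on chromosome 2 had a count. The most alike pair with any count was Zfp991 (chr4:147132038-147180579, plus strand) and Zfp992 (chr4:146449023-146470292, plus strand), whose proteins of 573 residues were 98.95% identical. Their coding sequences, 1719 bases each, differed at 8 positions and needed no gap. Coding bases 1062 to 1151, counted from the start codon, are given from the GENCODE transcripts, with the 2 differing bases in capitals, because a read of 30 or 45 bases within most of this stretch would match both genes.
Zfp991: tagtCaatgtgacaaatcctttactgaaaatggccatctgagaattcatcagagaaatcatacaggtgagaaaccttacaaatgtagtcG
Zfp992: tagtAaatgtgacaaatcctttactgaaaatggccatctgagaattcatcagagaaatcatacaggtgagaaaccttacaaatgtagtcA

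Zfp991 had 18 counts over all embryos, in 13 of 31, and Zfp992 had 22 counts, in 11 of 31, so their levels were too low to compare. Overlap of gene models is a further limit. The exons of 48 of the 165 genes with a position shared bases with another gene, 21 on the same strand and 32 on the opposite strand, and the strand setting of the counting is not given in the sources used here. Zfp935, with counts in all 31 embryos, lies within exons of other gene models on its strand over all of its 1631 exon bases, so its 9.20 CPM per kb cannot be assigned to it alone. Zfp708 overlapped same-strand models over 2537 of its 2633 exon bases.

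Of the 165 genes with a position, 83 lay in 10 clusters of at least 5, with neighbouring starts under 1 Mb apart, and 36 were on chromosome 7. The largest cluster, on chromosome 17 (chr17:21383748-22867134), held 14 genes, all with a KRAB pattern, at a median of 4.51 CPM per kb. Its highest member, Zfp820 (chr17:21816885-21845772, minus strand), had 33.9, 212 and 314 CPM in the control- and 36.4, 149 and 199 CPM in the SER-generated embryos. All 15 SER-generated embryos lay below the control median, while the groups overlapped and the edgeR adjusted p was 0.912. The highest median, 6.84 CPM per kb, was that of the cluster of 6 KRAB genes on chromosome 8 (chr8:69209038-69791178), all with counts in 16 or more embryos, led by Zfp869 at 17.9 CPM per kb. The lowest was that of the 10 genes on chromosome 2 (chr2:174643534-178078476), where the median gene was at 0, 5 genes had no count, and the median share of unique words was 18.3%. Zfp971 was the highest there, at 3.04 CPM per kb with counts in 30 embryos. In the 12 genes on chromosome 4 (chr4:145510759-147848366), the median was 1.47 CPM per kb at 44.1% unique words, and Zfp982 stood far above its neighbours.

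The remaining clusters were led by Zfp775 at 44.0 CPM per kb on chromosome 6, by Zfp954 at 37.8, Zfp936 at 47.5 and Zfp771 at 11.7 on chromosome 7, by Zfp708 at 2.14 on chromosome 13 and by Zfp952 at 1.17 on chromosome 17. Zfp954 (chr7:7114690-7121488, minus strand) stood above the other genes of its cluster, whose median over 5 genes was 0.857 CPM per kb. It was at 0 in control replicate 4 and SER replicate 15 and at 30.7 to 254 CPM in the other 29 embryos. Zfp952 had the reverse order, at 42.2 and 46.7 CPM in these 2 embryos and at 0 to 24.0 CPM in the others. The genes outside clusters had a median of 2.24 CPM per kb.

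**Figure D3:**
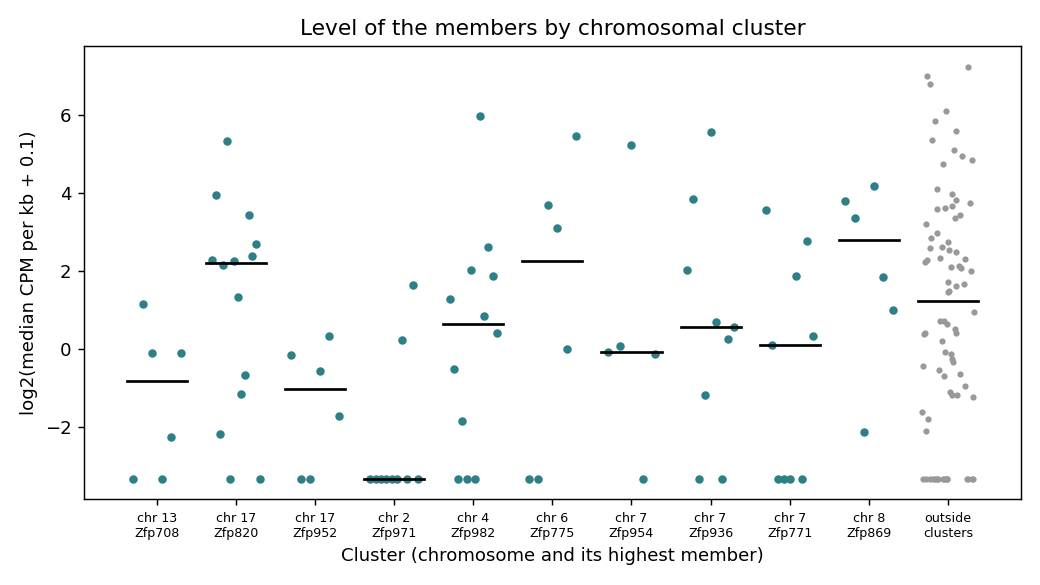
Median level over 31 embryos, as log2(CPM per kb + 0.1), of each gene (points) in the 10 clusters and outside them (grey), with a black bar at the median of each set. Several clusters hold 1 gene well above the rest, such as Zfp982 on chromosome 4, and 8 of the 10 genes of the chromosome 2 cluster sit at the bottom, where the median embryo had no count.

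To ask whether sperm treatment moved these genes, the groups were tested against each other with edgeR (quasi-likelihood) over all genes. Of the 166 genes, 79 passed the filter on low counts, and none had an adjusted p under 0.1 by edgeR. The background was also 0%, with none of 8571 genes called. The study itself reported differentially expressed genes at this threshold, with DESeq2 after a batch correction that could not be repeated here. At an unadjusted p under 0.05 there were 4 of 79 (5.06%), against a background of 5.73%, and the smallest adjusted p among the 79 was 0.809 by edgeR. Of the 79 estimates, 39 lay above 0 and 40 below, with a median of -0.00 on the log2 scale, against 52.7% above 0 and a median of 0.02 over all genes tested. For Zfp1 to Zfp599, 56 of 91 estimates lay above 0, with a median of 0.11. With no filter on low counts, edgeR called 0 of 158, with a background of 2.83%. DESeq2 called 0 of the 79, 19 of which it left without an adjusted p, with a background of 0.572%, and limma voom with sample quality weights called 8, or 10.1%, with a background of 9.89%, so that the count depends on the tool. The 8 were Zfp639, Zfp672, Zfp710, Zfp775, Zfp820, Zfp936, Zfp946 and Zfp951. In edgeR, their log2 fold changes were 0.11, 0.20, 0.94, 0.43, -0.50, -0.03, -0.09 and -0.50, in this order. With the log2 library size or the zygotic index as a covariate, edgeR called 0. CPM is a share of a library, so fewer copies of a transcript and more of all others cannot be told apart.

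The 4 genes with the smallest p among those with estimates above 0 were Zfp871, Zfp710, Zfp668 and Zfp646, and none passed the test. Zfp871 (chr17:32765496-32788287, minus strand) was at 0, 7.09 and 23.9 CPM in the control- and 0, 18.8 and 49.7 CPM in the SER-generated embryos. The 6 highest SER-generated embryos, at 26.3 to 49.7 CPM, lay above every control, and the lowest embryos of both groups were at 0. Its log2 fold change was 1.36 ± 0.61 (SE), with an edgeR adjusted p of 0.809. Zfp710 (chr7:80024814-80094173, plus strand) was at 0, 28.9 and 80.7 CPM in the control- and 0, 66.9 and 149 CPM in the SER-generated embryos, with 11 of 15 SER-generated embryos above the control median. Its log2 fold change was 0.94 ± 0.44 (SE), with an edgeR adjusted p of 0.826.

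Zfp668, known for a part in the DNA damage response, and Zfp646 are neighbours on chromosome 7 (chr7:127863047-127876828, minus strand, and chr7:127876221-127885996, plus strand) that share exon bases on opposite strands, so reads there cannot be told apart without strand. Zfp668 was at 0.975, 41.3 and 94.4 CPM in the control- and 0, 51.1 and 264 CPM in the SER-generated embryos. Its log2 fold change was 1.04 ± 0.51 (SE), with SER replicates 5 and 7 highest, and an edgeR adjusted p of 0.869. Zfp646 was at 0, 7.33 and 28.7 CPM in the control- and 6.49, 16.3 and 53.0 CPM in the SER-generated embryos, where 14 of 15 lay above the control median. Its log2 fold change was 0.86 ± 0.54 (SE), with an edgeR adjusted p of 0.918.

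On the other side were Zfp788, Zfp951, Zfp644 and Zfp706, of which none passed the test. Zfp788 (chr7:41633203-41651530, plus strand), with 23 fingers by pattern, was at 1.30, 17.98 and 101 CPM in the control- and 0.777, 10.3 and 39.0 CPM in the SER-generated embryos, and its log2 fold change was -0.99 ± 0.43 (SE) with an edgeR adjusted p of 0.809. Without control replicate 2, its highest embryo, or any other single embryo, the estimate lay between -1.20 and -0.68. Zfp951 (chr5:104813169-104860070, minus strand) was at 117, 299 and 459 CPM in the control- and 60.7, 158 and 642 CPM in the SER-generated embryos, where 13 of 15 lay below the control median and 1 lay above every control. Its log2 fold change was -0.50 ± 0.27 (SE), with an edgeR adjusted p of 0.869. Zfp644 (chr5:106616739-106697287, minus strand), a partner of the H3K9 methyltransferases G9a and GLP, was at 13.6, 74.3 and 116 CPM in the control- and 13.9, 48.1 and 97.3 CPM in the SER-generated embryos. Its log2 fold change was -0.51 ± 0.28 (SE), and that of Zfp706 was -0.28 ± 0.16 (SE), with edgeR adjusted p of 0.869 and 0.882. In all 8 genes the groups overlapped.

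**Figure D4:**
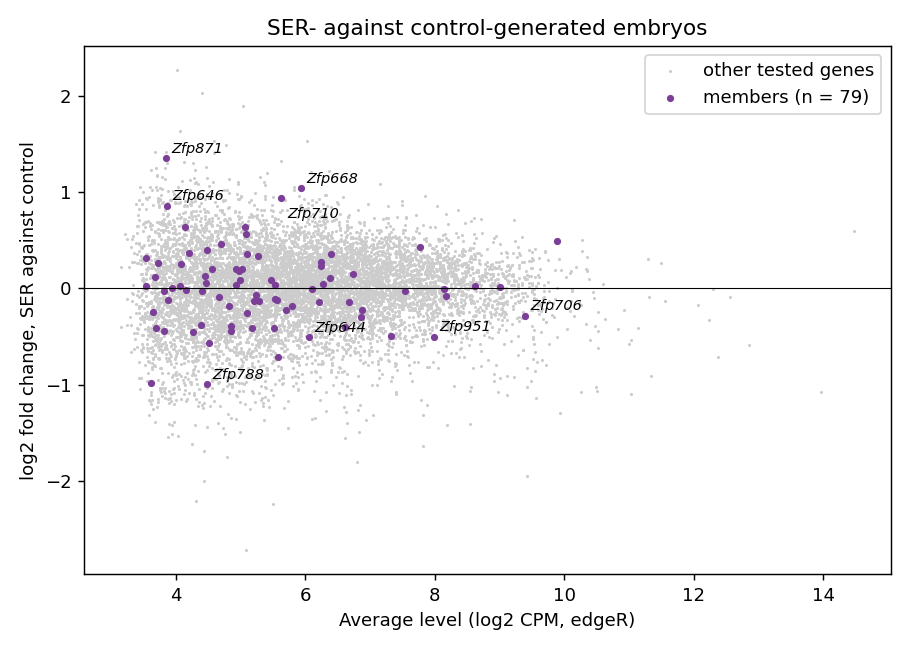
Log2 fold change of SER- against control-generated embryos (vertical axis) against the average log2 CPM (horizontal axis) for the 79 genes tested (purple) and the other genes tested (grey). The 79 points spread on both sides of 0 within the cloud of other genes, and the 8 labelled genes have the smallest p in each direction.

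Embryos collected at the same time differed in the ratio of zygotic to maternal transcripts. The zygotic index was used to ask which zinc finger genes followed this ratio. Either list can move the index. Control replicate 1 had the highest zygotic sum, 6278 CPM, but also a maternal sum of 37403 CPM and an index of -0.15. What sets the ratio in an embryo was not tested. The index was a median of -0.11 in the control- and 0.41 in SER-generated embryos. With edgeR's test of the slope over all genes, 50 of the 166 genes were tested. At an adjusted p under 0.1, 24 of the 50 (48.0%) were called, against a background of 55.2% of 6404 genes. Of these, 15 rose with the index, or 30% of the 50 against a background of 26.7%, and 9 fell, or 18% against 28.4%. Among Zfp1 to Zfp599, 21 of 61 rose and 12 fell. The genes that rose included 7 of the 23 tested with a KRAB pattern and 8 of the 26 without it, and the genes that fell included 4 and 5. Without control replicate 4, 13 rose and 7 fell of 50, with backgrounds of 21.6% and 25.4%. Without SER replicate 15 as well, 12 rose and 8 fell of 47, with backgrounds of 17.2% and 20.2%. With the log2 library size as a covariate, 15 rose and 9 fell, with backgrounds of 27.7% and 29.7%.

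Zfp775 (chr6:48602063-48623227, plus strand), with 12 fingers and no KRAB pattern, had the smallest p of the genes that rose, with a slope of 0.67 ± 0.11 (SE) on the log2 scale per SD of the index and an edgeR adjusted p of 1.63e-05. It was at 31.7 CPM in control replicate 4 and at 19.9 CPM in SER replicate 15, both under the lowest of the other embryos at 51.7 CPM, and reached 462 CPM. Without both embryos, its slope was 0.55 ± 0.13 (SE). Zfp710 had a slope of 1.27 ± 0.22 (SE) with an edgeR adjusted p of 3.13e-05. It was at 0 in both of these embryos and between 10.7 and 149 CPM in the other 29, where its slope was 0.96 ± 0.21 (SE). Zfp821 (chr8:109705546-109724932, plus strand) had a slope of 0.54 ± 0.10 (SE) with an edgeR adjusted p of 5.09e-05, and levels of 61.9 and 98.1 CPM in the 2 embryos against 221 to 683 CPM in the others, where its slope was 0.40 ± 0.12 (SE). Zfp707 had a slope of 1.23 ± 0.25 (SE) and Zfp639 (chr3:32510259-32520833, plus strand) one of 0.77 ± 0.18 (SE), with edgeR adjusted p of 0.000169 and 0.000622. Without both embryos, the slopes of Zfp707 and Zfp639 were 0.72 ± 0.15 and 0.79 ± 0.22 (SE). All 5 slopes stayed past the threshold without both embryos, with edgeR adjusted p of 0.000708 to 0.0132.

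Of the genes that fell, Zfp957 (chr14:79212355-79247369, minus strand) had the smallest p, with a slope of -0.46 ± 0.09 (SE) and an edgeR adjusted p of 7.75e-05. It was highest in control replicate 4, at 281 CPM, and in SER replicate 15, at 247 CPM, with the other 29 embryos between 43.5 and 178 CPM. Without both embryos, its slope was -0.33 ± 0.15 (SE), with an edgeR adjusted p of 0.0967, close to the threshold of 0.1. No C2H2 finger matched the pattern in its longest coding sequence. Zfp706 had a slope of -0.30 ± 0.07 (SE) with an edgeR adjusted p of 0.000485. Zfp932 (chr5:109996521-110010411, plus strand), known for repressing endogenous retroviruses in embryonic stem cells, had a slope of -0.52 ± 0.14 (SE) with an edgeR adjusted p of 0.00321, and levels of 9.11, 49.2 and 91.6 CPM in the control- and 12.8, 32.0 and 107 CPM in the SER-generated embryos. Its share of unique words was 51.1%. Zfp616 (chr11:74069955-74087292, plus strand) had a slope of -0.49 ± 0.17 (SE) and Zfp946 (chr17:22424222-22456689, plus strand) one of -0.55 ± 0.20 (SE), with edgeR adjusted p of 0.0176 and 0.025. Without both embryos, the slopes of Zfp706, Zfp932, Zfp616 and Zfp946 were -0.40 ± 0.10, -0.80 ± 0.20, -0.66 ± 0.24 and -0.92 ± 0.30 (SE), all past the threshold.

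**Figure D5:**
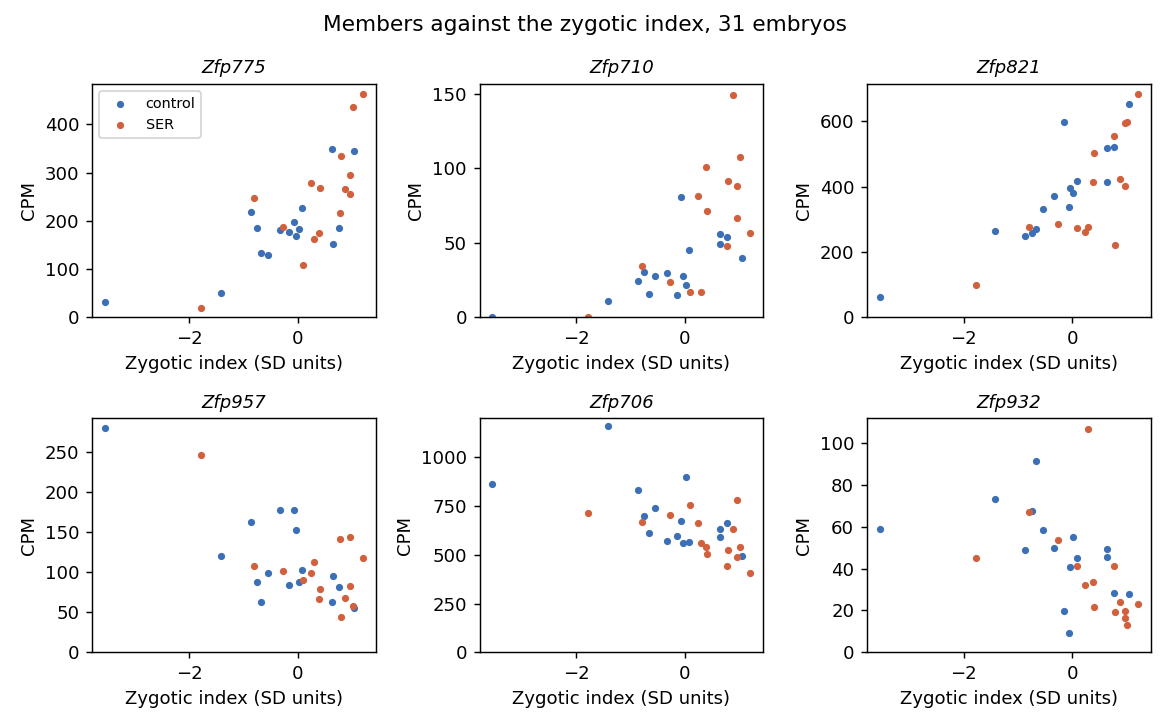
CPM of 3 genes that rose and 3 that fell against the zygotic index (in SD), with 1 point per control-generated (blue, n = 16) or SER-generated (orange, n = 15) embryo. The points at -3.55 and -1.78 are control replicate 4 and SER replicate 15, which are low for Zfp775, Zfp710 and Zfp821 and the highest for Zfp957.

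The 2 embryos of lowest index were also set apart by genes with no count at all. Of 53 genes of the group with counts in each of the other 29 embryos, 5 (9.43%) had none in either of the 2, which were Zfp622, Zfp707, Zfp710, Zfp948 and Zfp954. Over all genes of the table this held for 219 of 6295 (3.48%), and among Zfp1 to Zfp599 for 5 of 57. A count of 0 leaves room for up to 3 counts, or 4.53 CPM in control replicate 4 and 1.17 CPM in SER replicate 15, while Zfp707 and Zfp622 had medians of 587 and 808 CPM in the other embryos. These 2 embryos were singled out after their index was known, and no test was made between them and the others.

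Promoter sequences from RefSeq on GRCm38.p6, 250 bases before to 50 bases after the start, were matched by symbol for 145 of the 166 genes, taking for each gene the start nearest to that of the GENCODE gene. They held a median of 10 CpG dinucleotides, against 7 over all 32851 promoters of the table. These 32851 were not reduced to a single start per gene, so the sets compared were chosen differently. The motif TATAAA was in 2.76% of the 145 and in 13.6% of all promoters, CCAAT in 60.7% and 37.4%, and GGGCGG in 43.4% and 35.7%, each searched on both strands and with overlaps between motifs allowed. The 12 promoters matched among the genes that rose with the index had a median of 12.5 CpG dinucleotides and the 8 among those that fell had 10. These are descriptions of letters in a window. Printed here are the promoters of Zfp775 and Zfp710, which had the smallest p among the genes that rose, and of Zfp957 and Zfp932, which had the smallest among the falling genes matched, with each CpG in capitals. They hold 24, 4, 4 and 7 CpG dinucleotides.
Zfp775, chr6:48601757-48602056, plus strand: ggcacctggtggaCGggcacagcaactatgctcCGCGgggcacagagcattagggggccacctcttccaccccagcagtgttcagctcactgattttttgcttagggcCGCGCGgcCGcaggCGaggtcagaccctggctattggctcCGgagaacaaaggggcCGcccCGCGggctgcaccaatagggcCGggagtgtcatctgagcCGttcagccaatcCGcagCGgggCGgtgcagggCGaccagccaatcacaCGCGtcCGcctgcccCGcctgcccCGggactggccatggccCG
Zfp710, chr7:80024564-80024863, plus strand: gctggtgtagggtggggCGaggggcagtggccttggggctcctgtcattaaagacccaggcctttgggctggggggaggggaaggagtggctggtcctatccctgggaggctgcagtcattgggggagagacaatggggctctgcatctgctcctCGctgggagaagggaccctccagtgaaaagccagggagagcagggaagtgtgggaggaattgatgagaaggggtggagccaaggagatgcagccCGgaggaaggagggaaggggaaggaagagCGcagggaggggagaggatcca
Zfp957, chr14:79247318-79247617, minus strand: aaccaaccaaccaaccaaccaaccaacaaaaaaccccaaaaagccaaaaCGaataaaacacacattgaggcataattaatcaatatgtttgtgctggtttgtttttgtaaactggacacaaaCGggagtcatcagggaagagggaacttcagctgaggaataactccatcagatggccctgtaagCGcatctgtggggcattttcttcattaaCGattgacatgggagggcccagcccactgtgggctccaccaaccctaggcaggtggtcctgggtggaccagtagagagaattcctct
Zfp932, chr5:109996277-109996576, plus strand: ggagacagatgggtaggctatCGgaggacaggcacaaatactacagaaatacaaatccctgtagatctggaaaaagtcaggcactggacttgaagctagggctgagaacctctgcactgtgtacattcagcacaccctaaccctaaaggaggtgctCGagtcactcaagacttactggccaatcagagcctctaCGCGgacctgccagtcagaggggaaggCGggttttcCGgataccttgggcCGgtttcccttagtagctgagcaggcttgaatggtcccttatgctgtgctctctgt

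Of 19 genes of the group with a described role, 12 passed the filter of the comparison between sperm treatments. Their edgeR adjusted p ran from 0.869 to 0.995, and 6 estimates lay above 0 and 6 below. Zfp809 (chr9:22225714-22243354, plus strand), which silences murine leukaemia viruses by binding their primer binding site, was at 9.21, 32.7 and 163 CPM in the control- and 0.927, 27.1 and 85.2 CPM in the SER-generated embryos. Zfp638, which takes part in silencing unintegrated retroviral DNA with the HUSH complex, had counts in every embryo, from 34.9 to 100 CPM in the control- and from 38.3 to 132 CPM in the SER-generated embryos. Zfp687, a partner of the chromatin reader Zmynd8, ran from 0.975 to 83.0 CPM in the control- and from 21.3 to 96.1 CPM in the SER-generated embryos. Zfp609, a partner of the cohesin loader Nipbl, ran from 14.1 to 88.6 and from 13.2 to 80.1 CPM. Zfp703, a transcriptional corepressor, ran from 4.88 to 47.5 and from 13.0 to 80.5 CPM. The groups overlapped in all of these.

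Several genes of described role were close to the limit of detection. Zfp819, which acts on retrotransposons in pluripotent cells, had counts in 24 embryos, with medians of 6.33 CPM in the control- and 2.91 CPM in the SER-generated embryos. Zfp746, known as Paris, a repressor of the gene for PGC-1α, also had counts in 24 embryos, with medians of 9.47 and 4.93 CPM. Zfp618 had counts in 25 embryos, Zfp787 in 28, and Zfp652 and Zfp704 in 29. Zfp711, an X-linked partner of the histone demethylase Phf8, had counts in 2 of 31 embryos, neither above 1.45 CPM. Zfp608 and Zfp740 were higher and passed the filter on low counts. Zfp608 had counts in 29 embryos, at medians of 19.6 and 26.6 CPM, and Zfp740 in 30, at medians of 17.3 and 26.5 CPM.

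Transcripts of the proteins through which KRAB genes act were counted in the same libraries. Of 17 corepressor genes, 16 had counts in all 31 embryos. Trim28, which binds the KRAB box, was at 5.06, 302 and 687 CPM over the 31 embryos, and Setdb1 at 11.8, 91.3 and 167 CPM. Of the 16 that passed the filter, none had an edgeR adjusted p under 0.1 between sperm treatments, at a background of 0%. At an unadjusted p under 0.05 by edgeR there was 1 (6.25%), against a background of 5.73%. Above 0 lay 11 estimates (68.8%), against 52.7% of all genes tested. DESeq2 called 0 of the 16 and limma voom with quality weights 4, at backgrounds of 0.572% and 9.89%. With the zygotic index, 3 of 15 rose and 5 fell, against backgrounds of 26.7% and 28.4%, and without both embryos of lowest index 4 rose and 3 fell, against 17.2% and 20.2%. Trim28 rose with a slope of 1.02 ± 0.15 (SE) and an edgeR adjusted p of 3.04e-06, and of 0.77 ± 0.15 (SE) without both embryos. Setdb1 had a slope of -0.28 ± 0.11 (SE) with an edgeR adjusted p of 0.0327, and lost its call without both embryos, at -0.14 ± 0.17 (SE) with an edgeR adjusted p of 0.567.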

How the data were processed

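RNA of single 2-cell embryos was sequenced with the Smart-seq3 protocol (read 1 of 45 bases, read 2 of 30), 1 library per embryo, 16 control- and 15 SER-generated. The authors separated 5′ reads with a molecular identifier from internal reads, used STAR for alignment, UMI-tools or Picard to drop duplicates and featureCounts to count. The submitters' processing notes name mm10 and no versions. The deposited values are whole-number counts per gene symbol, not normalized. Batch correction as the authors ran it was not possible here. The annotation and strand setting are not given in the sources used here.

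From the deposited counts, edgeR 4.0.16 (R 4.3.3) was run with TMM, filterByExpr (minimum count 10, minimum total 15) and quasi-likelihood tests, for sperm treatment and for the slope on the zygotic index (pseudocount 1 CPM), each over all genes with Benjamini-Hochberg adjustment and a threshold of 0.1. A standard error is the estimate divided by the square root of F. CPM used library totals. Of the table's symbols, 20013 matched GENCODE vM21 by symbol, 336 by an older symbol and 195 not. Fingers and KRAB boxes were sought by sequence pattern in translated GENCODE coding sequences, which stood in for RefSeq proteins. The fits were tested on simulated data. Counts of 532945 to 3088396 per library limit the precision.

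The genes and lists were chosen with earlier results of these data known. Genes named are the 10 highest per exon length, the 4 of smallest p in each direction for sperm treatment, the 5 in each direction for the index, the highest of each cluster, those with a described role and the most alike pair with counts. Zfp672, Zfp935, Zfp948 and the genes with no count were named after their values were seen. Alternatives were DESeq2's size factors, no or a stricter filter, DESeq2 1.42.0, limma voom 3.58.1 with quality weights, covariates, the lists of the index taken singly, a replicate block, and leaving out embryos. Leaving out embryos was chosen after seeing the data.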

Additional observations from a re-analysis of the deposited data

How the results depend on the processing

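With limma voom and quality weights, 8 genes were called between sperm treatments against 0 in edgeR, as listed above. Among the 8 genes whose fold changes are given, these were Zfp710 (1.00, adjusted p 0.0682) and Zfp951 (-0.73, adjusted p 0.0408). The other alternatives called 0, as did edgeR without any 1 embryo, where the median log2 fold change ranged from -0.04 to 0.06. For the zygotic index, 16 of 158 genes fell with no filter on low counts, against 13.4% of all genes, 23 of 50 rose with the zygotic list alone, against 32.8%, and 4 of 50 rose with the maternal list alone, against 12.2%. The cause of these differences was not tested. Leaving out embryos gave 12 to 21 genes that rose and 7 to 11 that fell, while the shares of all genes ran from 17.2% to 33.6% rising and from 20.2% to 29.3% falling. Both the 21 and the 33.6% came without control replicate 3. In single genes, Zfp946 lost its call with no filter (-0.48), Zfp616 with the zygotic list alone (-0.17), and Zfp821 (0.15), Zfp707 (0.47) and Zfp639 (0.20) with the maternal list alone. The other slopes of the genes named for the index kept their direction and call under the alternatives run. Of the 9 genes that fell in the main fit, 4 were also called falling with no filter on low counts. With the stricter filter (at least 10 counts in at least 15 embryos) 5 were, and with sperm treatment as a covariate 6 were. All 15 that rose were also called rising in each of these settings. With at least 5 counts required, an embryo held a median of 89 of the genes.

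The labels number the embryos of both groups. Same-numbered embryos correlated by -0.37 to 0.49 after removing group means, 8 of 15 pairs were above 0.1 and 4 correlated best with their own number, and nothing in the labels ties a number to a male, batch or day, so the numbers were not taken as pairs. Whether some same-numbered embryos shared a batch was not tested. With the replicate block, 0 genes were called between sperm treatments (median -0.01), and of 47 tested 13 rose and 8 fell with the index, against 26.9% and 19.3% of all genes. Depth limits genes with few counts, since 87 of the 166 were not tested between sperm treatments.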
